A study of Mus musculus with 51 samples.

Results

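The regions described here are the acetylated nucleophosmin (AcNPM1) peaks of mouse embryo chromatin that were listed in the table made with a p300 inhibitor and shared no base with any AcNPM1 peak of the table of LoNA knockout (KO) and control embryos. They numbered 3799 of the 11745 peaks of the inhibitor table, or 32.3%. The other 7946 peaks shared at least 1 base with a KO/control peak and are called shared peaks. The KO/control table held 9602 peaks, of which 1642 had no counterpart in the inhibitor table and served as a second group for comparison. All embryos were C57BL/6 and were sampled at 24h. The 3 AcNPM1 conditions were control embryos, LoNA KO embryos, and LoNA KO embryos treated with a p300 inhibitor, so that every embryo behind the inhibitor table carried the LoNA deletion. LoNA is a nucleolar long noncoding RNA, which the RNA tables do not list by that name, so its deletion was not checked. The labels name neither the inhibitor nor its dose and do not say how LoNA was deleted or how many embryos were pooled. Libraries were made in situ by tagmentation with a commercial ChIP kit, using the antibody MABE938 against AcNPM1.

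Nucleophosmin (NPM1) is an abundant histone chaperone of the nucleolus that shuttles to the nucleoplasm. p300 is a lysine acetyltransferase that acts on histones and on other proteins, and NPM1 is among its known substrates. Trimethylation of histone H3 at lysine 27 (H3K27me3) is laid down by Polycomb repressive complex 2 and marks repressed chromatin, often over developmental regulators. Trimethylation at lysine 4 (H3K4me3) is typical of gene starts, above all those in CpG islands, which are stretches of DNA rich in the dinucleotide CpG. Both marks can lie on the same developmental promoters, and in the early embryo both can also spread over long stretches away from genes.

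The stretches below are printed as chosen examples of CpG-rich gene starts that these regions covered, with and without each histone mark. Each is the part of the 250 bases before a RefSeq gene start (GRCm38.p6, the same coordinates as the mm10 build of the tables) that lay inside the region. Each runs 5′ to 3′ on the strand of its gene, and capitals mark CpG. Acan encodes aggrecan, a cartilage proteoglycan, Ier5 is an immediate early response gene, and Cfap100 encodes a protein of cilia and flagella. The Dmbx1 and Lhx3 starts, both of homeobox genes of the developing head, were chosen after their values were seen, to show a region with H3K4me3 only and one with neither mark. Lhx3 is not typical of the latter: the 20 RefSeq windows under regions with neither mark held a median of 5 CpG, and 4 of them held at least 10. The stretches of named regions that are not printed, at C230034O21Rik, Gm26633 and Gm46817, held 9 CpG in 128 bases, 4 in 61 and 1 in 117.
Acan (both marks), chr7:79052976-79053225, plus strand: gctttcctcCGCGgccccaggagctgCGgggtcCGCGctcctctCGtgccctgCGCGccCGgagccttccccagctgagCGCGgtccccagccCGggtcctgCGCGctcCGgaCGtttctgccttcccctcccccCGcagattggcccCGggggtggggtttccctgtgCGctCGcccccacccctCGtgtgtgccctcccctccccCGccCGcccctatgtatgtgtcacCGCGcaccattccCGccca
Ier5 (both marks), chr1:155099637-155099833, minus strand: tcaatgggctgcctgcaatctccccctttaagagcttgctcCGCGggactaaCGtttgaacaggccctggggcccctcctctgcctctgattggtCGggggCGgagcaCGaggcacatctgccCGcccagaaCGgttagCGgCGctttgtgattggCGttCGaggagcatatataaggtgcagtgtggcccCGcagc
Cfap100 (both marks, the widest region), chr6:90428481-90428730, minus strand: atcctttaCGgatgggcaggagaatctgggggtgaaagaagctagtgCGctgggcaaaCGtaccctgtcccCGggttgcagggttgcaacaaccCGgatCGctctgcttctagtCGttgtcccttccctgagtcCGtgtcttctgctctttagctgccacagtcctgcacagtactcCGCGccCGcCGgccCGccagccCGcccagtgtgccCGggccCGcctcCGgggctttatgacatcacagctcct
Dmbx1 (H3K4me3 only), chr4:115939927-115940176, minus strand: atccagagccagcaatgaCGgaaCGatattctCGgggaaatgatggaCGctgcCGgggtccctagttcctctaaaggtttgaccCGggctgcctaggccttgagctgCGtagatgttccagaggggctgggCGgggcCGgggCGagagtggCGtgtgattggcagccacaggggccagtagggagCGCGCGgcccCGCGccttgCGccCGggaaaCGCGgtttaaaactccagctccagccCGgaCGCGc
Lhx3 (neither mark), chr2:26206576-26206825, minus strand: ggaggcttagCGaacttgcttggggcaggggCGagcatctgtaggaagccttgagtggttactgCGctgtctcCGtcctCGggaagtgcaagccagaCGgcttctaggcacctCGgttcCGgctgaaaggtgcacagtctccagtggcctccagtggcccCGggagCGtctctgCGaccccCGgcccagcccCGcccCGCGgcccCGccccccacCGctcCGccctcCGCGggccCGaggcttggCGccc
The Acan stretch held 26 CpG in 250 bases, the Ier5 stretch 13 in 197, the Cfap100 stretch 17, the Dmbx1 stretch 23 and the Lhx3 stretch 22. The Acan region, chr7:79052224-79053384, had 15.1 reads per 1000000 total reads (RPM) in KO and 12.9 in KO with inhibitor. The Dmbx1 region, chr4:115939843-115940409, had 10.6 RPM in both columns. The Lhx3 region, chr2:26206160-26207487, had 12.3 RPM in KO and 13.8 with inhibitor, and lay 270 bases from a KO/control peak.

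Each AcNPM1 table gave 1 column of reads and 1 of RPM for each condition, although the labels list 3 samples a group. The spread between replicates could therefore not be measured, and no p-value is given for any region. Intervals below are 95% intervals that cover counting error only. The KO column had 60297174 total reads, KO with inhibitor 37816980 and control 32077472. The KO column was the same in both tables: 2317 peaks had identical coordinates in both, and their KO reads differed by 0. The AcNPM1 tables, and those of both histone marks, held no peak below 1 RPM in both columns. The lowest value of the higher column was 1.005 RPM in the inhibitor table and 1.012 in the KO/control table.

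The regions carried AcNPM1 reads in KO embryos without inhibitor. The median region had 2.31 RPM in KO (quartiles 1.46 and 3.85) and 2.25 RPM in KO with inhibitor (quartiles 1.45 and 3.73). Only 231 regions, or 6.08%, were below 1 RPM in KO, and 126, or 3.32%, were below it with inhibitor, so 3442 regions (90.6%) had at least 1 RPM in both columns. The KO column alone thus stood at or above the lower limit of the KO/control table in all but the 231. In the KO/control table the peaks without a counterpart had a median KO RPM of 2.14. Shared peaks were stronger, with a median of 5.54 RPM in KO and 5.10 with inhibitor.

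The regions were also narrower. They had a median width of 485 bases (quartiles 384 and 627, range 214 to 2040), against 746 bases for shared peaks and 467 for peaks only in the KO/control table. Per kilobase, the median region had 4.79 RPM in KO and 4.69 with inhibitor, shared peaks had 7.59 and 7.005, and peaks only in the KO/control table had 4.56 in KO. Set against all peaks of the KO/control table, 697 regions (18.3%) reached the median KO RPM of that table, which was 4.56, and 2241 (59.0%) reached the lower quartile of its KO RPM per kilobase. In all, the regions took 694373 KO reads, 1.15% of the KO total, and 419559 reads with inhibitor, 1.11% of that total. All peaks of the inhibitor table took 7.88% and 7.42%.

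**Figure D1:**
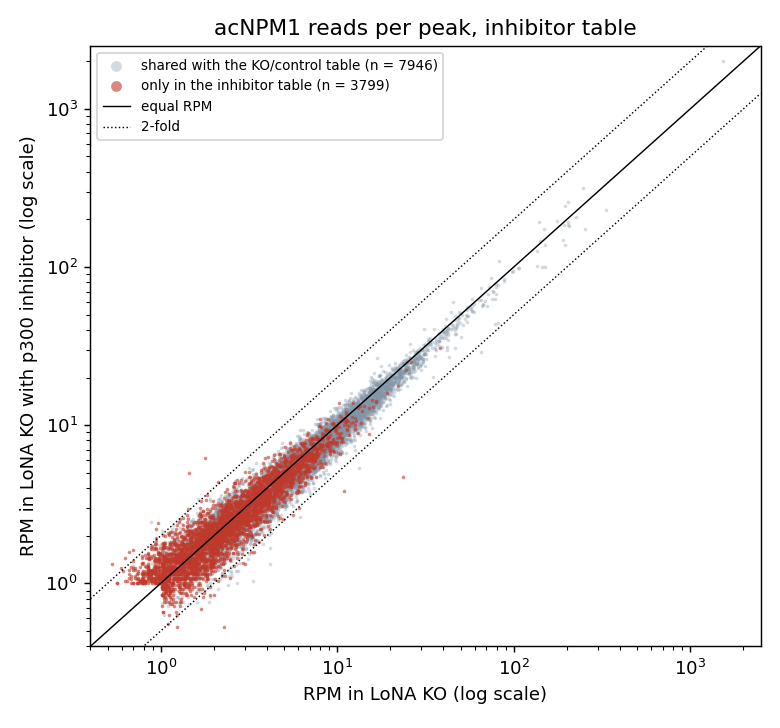
RPM of each peak of the inhibitor table in LoNA KO (x axis, log scale) and LoNA KO with p300 inhibitor (y axis, log scale); red and grey points separate the 3799 regions only in the inhibitor table from the 7946 shared peaks, and lines mark equal RPM and 2-fold. The regions lie along the line of equal RPM at lower values (medians 2.31 and 2.25 RPM) than shared peaks (5.54 and 5.10), and no point has both values below 1.

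The rule had a sharp edge. The region nearest to a KO/control peak, chr6:89363703-89364152, lay 24 bases from it and had 3.27 RPM in KO and 2.35 with inhibitor, and the next nearest lay 26 and 40 bases away. Just outside the rule, the peaks with the smallest overlap, 5, 32 and 119 bases, had 3.96, 1.68 and 5.84 RPM in KO. The median distance of a region to the nearest KO/control peak was 37923 bases. Of the regions, 453 (11.9%) lay within 1 kb of such a peak, 1147 (30.2%) within 10 kb, and 1198 (31.5%) more than 100 kb away.

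RPM in KO with inhibitor and in KO were close over most regions. The median log2 ratio of inhibitor over KO was -0.029 (quartiles -0.24 and 0.20), beside -0.10 for shared peaks and -0.083 for all peaks of the table. RPM with inhibitor exceeded KO in 1771 regions (46.6%), beside 2676 shared peaks (33.7%). The direction of the median depended on the scaling: with reads divided by the reads in all peaks of the table, every log2 ratio rose by 0.086, and the medians became 0.057 for the regions, -0.016 for shared peaks and 0.0025 for all peaks. The difference between the median of the regions and that of all peaks, 0.054, was the same on both scales. The rule left out peaks seen in KO or control, so the order of the 2 medians is not independent of it.

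Few regions differed by 2-fold. RPM was at least 2-fold higher with inhibitor in 12 of the 3799 regions (0.316%), against a background of 0.128% of all peaks of the table, and at least 2-fold lower in 20 (0.526%), against a background of 0.4%. With the reads in peaks as the scale, which shifted every peak alike, the counts were 27 and 12. No share of all peaks was computed on that scale. At 1.5-fold, 178 regions (4.69%) were higher and 187 (4.92%) lower, against a background of 2.38% and 4.73%. Among the 3442 regions with at least 1 RPM in both columns, 4 (0.116%) were 2-fold higher and 13 (0.378%) were 2-fold lower. The background was 0.0532% and 0.310% of all 11280 such peaks of the table. The rest of the 2-fold regions were below 1 RPM in 1 column.

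The ratio moved with the number of reads. The 178 regions with fewer than 100 summed reads had a median log2 ratio of 0.35 (SD over regions 0.44), and the 1505 with 100 to 200 reads had 0.017 (SD 0.39). The 1286 with 200 to 400 reads had -0.052 (SD 0.33). The 830 with at least 400 reads had -0.092 (SD 0.26), close to the -0.11 (SD 0.23) of shared peaks at that depth. No region with at least 400 reads was 2-fold higher, and 4 were 2-fold lower, beside 0 and 3 of 4864 shared peaks. In shared peaks the median also fell with reads, from 0.090 below 100 reads through -0.030 and -0.089 to the -0.11 above. The part of the 1 RPM limit, and of the lower depth of the inhibitor column, in this pattern was not tested.

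**Figure D2:**
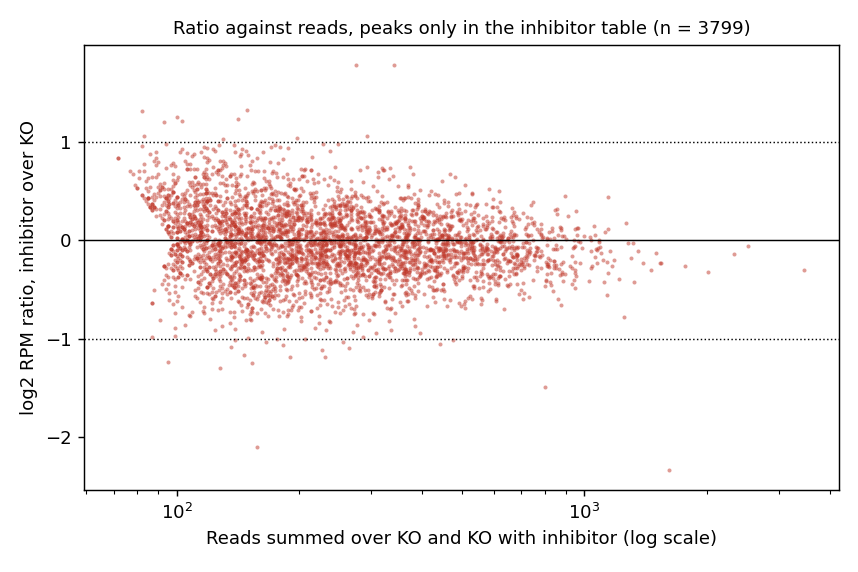
The log2 RPM ratio of KO with inhibitor over KO (y axis) for each of the 3799 regions against reads summed over both columns (x axis, log scale). The spread narrows with reads, from an SD of 0.44 below 100 reads to 0.26 at 400 reads and above, where the median is -0.092.

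The 20 regions that were 2-fold lower with inhibitor were narrower than the median region. Their median width was 375 bases, against 485 for all regions, and 8 were under 300 bases wide, as were 329 of all 3799 regions. H3K27me3 overlapped 2 of them, against 44.2% of all regions, and H3K4me3 overlapped 12, against 62.1%. Of the 27 shared peaks that were 2-fold lower, H3K27me3 overlapped 18, against 85.6% of all shared peaks. H3K4me3 overlapped 15 of the 27, against 79.4%. The lowest ratio belonged to chr13:120321419-120321637, which had 23.7 RPM in KO and 4.71 with inhibitor (log2 ratio -2.33, ratio 0.198, interval 0.169 to 0.232). It was 218 bases wide, overlapped neither mark, and lay 4541 bases from the start of Tcstv3, a gene named for its transcripts in the two-cell embryo. Tcstv3 has close relatives nearby, and how reads that match several places were counted is not given in the sources used here.

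The next lowest, chr10:22461933-22462150, lay outside genes and had 2.27 RPM in KO and 0.529 with inhibitor. A region inside Dopey2, chr16:93789191-93789412, had 10.9 and 3.86 RPM and overlapped H3K4me3 only. A region inside Fam19a4, chr6:97011064-97011426, had 1.69 and 0.688 RPM. Of the 20, 4 lay near gene starts. One covered the start of Pkp2, which encodes the desmosome protein plakophilin 2, at chr16:16213311-16213608 and had 2.01 and 0.846 RPM. The other three, named after their values were seen, lay at Actn2, an actin crosslinker of the sarcomere, with 5.64 and 2.72 RPM, at Cdca2, a mitotic chromatin protein, with 3.25 and 1.59 RPM, and at 4930583K01Rik with 2.11 and 1.03 RPM. These regions were chosen as the lowest ratios, and their values are a description of 1 column a condition.

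The 12 regions that were 2-fold higher had few reads, 32 to 127 in KO and 47 to 233 with inhibitor. The highest ratio, at chr5:114173106-114173353 inside Acacb, which encodes a mitochondrial acetyl-CoA carboxylase, came from 1.44 RPM in KO and 4.97 with inhibitor (log2 ratio 1.78, ratio 3.45, interval 2.66 to 4.50). The region chr17:4626170-4626597, outside genes, had 1.79 and 6.16 RPM. Both lacked H3K27me3 and H3K4me3. The next highest had 0.962 and 2.41 RPM at chr9:88553232-88553477, inside Zfp949 at the start of the small RNA gene Gm26461, and 0.531 and 1.32 RPM at chr4:16545372-16545898, outside genes with H3K4me3. Of the 12, 3 overlapped H3K27me3 and 5 overlapped H3K4me3, against 44.2% and 62.1% of all regions. Neither mark lay on 6, against 24.98%, and 1 lay within 1 kb of a gene start, against 27.5%.

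The mark is given as H3K27me3 by the sample labels and the peak table, while the series' design text names H3K27ac, and which is right could not be checked. H3K27me3 peaks overlapped 1679 of the regions, 44.2% (interval 42.6 to 45.8), against 85.6% of shared peaks and 42.4% of peaks only in the KO/control table. H3K4me3 peaks overlapped 2358, 62.1% (interval 60.5 to 63.6), against 79.4% and 51.3%. Both marks lay on 1187 regions (31.2%), H3K27me3 alone on 492 (13.0%), H3K4me3 alone on 1171 (30.8%), and neither on 949 (24.98%). Shared peaks divided otherwise: 70.1% had both marks, 15.5% H3K27me3 alone, 9.28% H3K4me3 alone and 5.17% neither. Peaks only in the KO/control table had 25.7%, 16.7%, 25.6% and 32.0%. There were 11638 H3K27me3 peaks and 48658 H3K4me3 peaks in the tables, from control and LoNA KO embryos at 24h, and no histone mark was profiled with inhibitor.

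**Figure D3:**
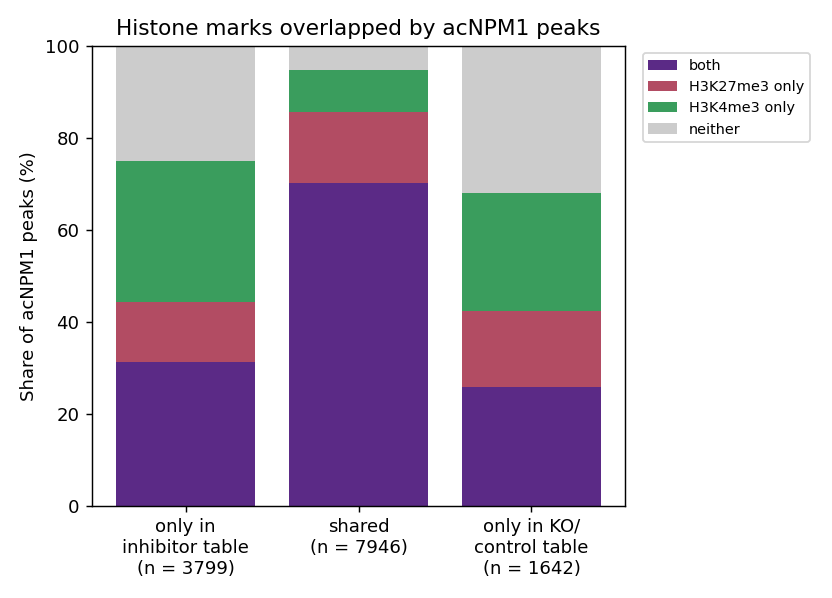
Stacked bars of the share of AcNPM1 peaks (y axis, %) that overlap both histone marks, H3K27me3 only, H3K4me3 only or neither, for peaks only in the inhibitor table, shared peaks and peaks only in the KO/control table. Both marks lie on 31.2% of the regions, 70.1% of shared peaks and 25.7% of peaks only in the KO/control table.

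The lower H3K27me3 share held at each width. Of regions 200 to 300 bases wide 21.9% overlapped H3K27me3, against 35.4% of shared peaks, and the share rose through 40.8% at 400 to 500 bases to 72.7% at 1000 bases and above, against 73.1% and 96.8%. For H3K4me3 the shares at 300 to 400, 400 to 500 and 1000 bases and above were 52.5%, 61.0% and 80.6% for the regions and 62.3%, 64.8% and 90.8% for shared peaks. The same order was seen when peaks were divided by their KO RPM, where 34.1% of regions at 1 to 2 RPM and 74.2% at 10 RPM and above overlapped H3K27me3, against 63.02% and 96.7% of shared peaks. Among peaks at least 400 bases wide, H3K27me3 lay on 50.8% of the regions and 88.4% of shared peaks.

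**Figure D4:**
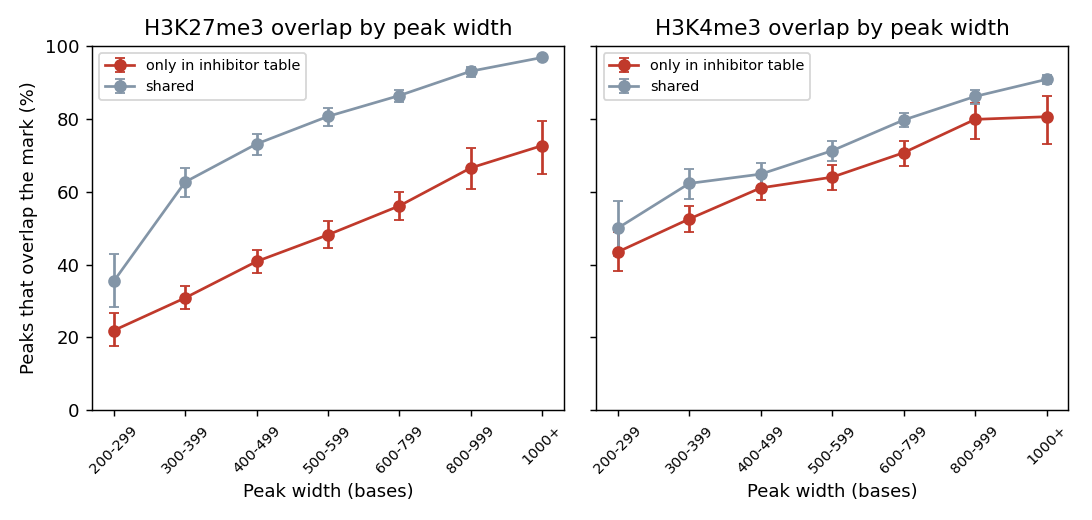
Share of peaks that overlap H3K27me3 and H3K4me3 (y axes, %) against peak width in bases (x axes), for regions only in the inhibitor table and shared peaks, with 95% Wilson intervals for counting error. At every width bin the regions lie below shared peaks for both marks, from 21.9% against 35.4% to 72.7% against 96.8% for H3K27me3.

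Regions with both marks had the most AcNPM1 reads, with a median of 2.97 RPM in KO and 2.86 with inhibitor. Regions with H3K27me3 alone had 2.37 and 2.31 RPM, those with H3K4me3 alone 1.97 and 1.90, and those with neither 1.89 and 1.93. Regions with both marks were also the widest, with a median of 557 bases against 512, 471 and 413. Per kilobase the KO medians were 5.27 for both marks, 4.58 for H3K27me3 alone, 4.36 for H3K4me3 alone and 4.71 for neither, so the order of the last 3 changed. The 1669 H3K27me3 peaks that the regions overlapped were weaker than those under shared peaks, with a median of 2.79 RPM in control and 2.81 in KO against 5.10 and 5.34, and 3.43 and 3.57 for all H3K27me3 peaks. The 2338 H3K4me3 peaks had 7.45 RPM in control and 6.85 in KO, against 9.98 and 9.37 under shared peaks and 5.56 and 5.04 for all H3K4me3 peaks. The histone tables name their columns by initials. The ratio they print, taken with the table's title, is what assigned the initials to control and KO here.

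By location, 1045 regions (27.5%, interval 26.1 to 28.9) lay within 1 kb of a gene start, against 38.2% of shared peaks and 23.5% of peaks only in the KO/control table. Bodies of protein-coding genes held 1145 (30.1%), bodies of other genes 171 (4.50%), and 1438 (37.9%) lay outside genes. A region spanned a gene start in 452 cases (11.9%), against 22.0% of shared peaks, and 740 (19.5%) lay more than 100 kb from the start of any protein-coding gene. The nearest start was that of a protein-coding gene for 839 of the 1045 (80.3%), of a processed pseudogene for 56 and of a lincRNA for 47. Every chromosome of the table gave regions, from 27.5% of the peaks of chromosome 18 to 39.4% of the 33 of chromosome Y.

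**Figure D5:**
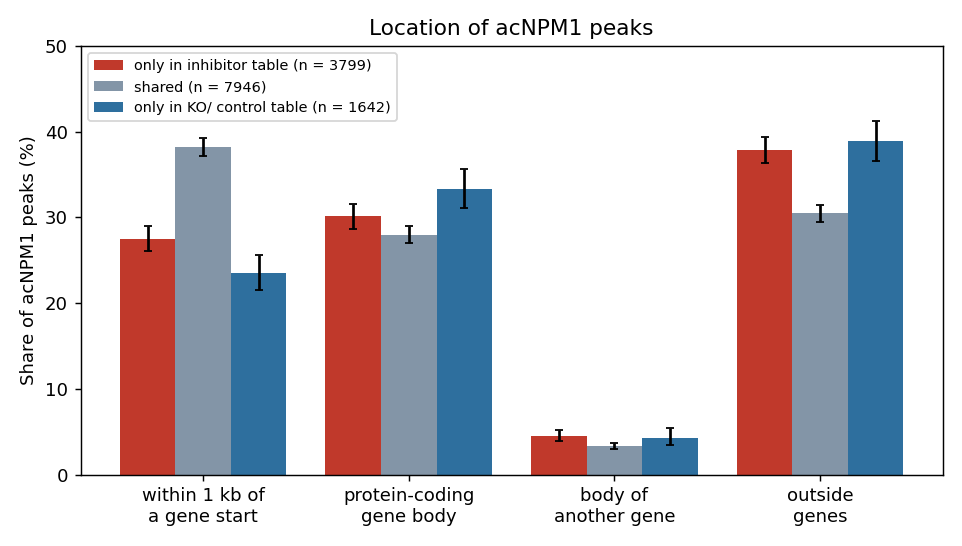
Share of AcNPM1 peaks (y axis, %) within 1 kb of a gene start, in protein-coding gene bodies, in bodies of other genes and outside genes, for the 3 sets of peaks, with 95% Wilson intervals for counting error. The regions lie near gene starts in 27.5% of cases, shared peaks in 38.2% and peaks only in the KO/control table in 23.5%.

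At gene starts, H3K4me3 was nearly as common on the regions as on shared peaks and H3K27me3 was not. Of the 1045 regions near starts, 921 (88.1%) overlapped H3K4me3 and 508 (48.6%) overlapped H3K27me3, against 94.99% and 89.6% of shared peaks near starts. The lower H3K27me3 share was not particular to starts. Outside genes the H3K4me3 and H3K27me3 shares were 49.7% and 42.9% for the regions, against 66.1% and 82.4% of shared peaks. Neither mark lay on 31.6% of the regions there, against 7.89% of shared peaks. In protein-coding gene bodies H3K27me3 lay on 42.9% of the regions and 83.6% of shared peaks. Regions near starts had a median of 3.002 RPM in KO and 2.83 with inhibitor, and those outside genes 1.81 and 1.77.

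The gene starts under the regions were CpG-rich. A RefSeq window of 300 bases, 250 before and 50 after a start, was overlapped by a region and no other peak in 608 cases. Over all windows, with those under a shared peak included, 513 regions were the one that overlapped a window most. The 608 windows held a median of 19 CpG (quartiles 12 and 28). The windows under shared peaks held 18 CpG, and all 32817 windows held 7. At least 10 CpG, counted as the letters CG, which read the same on both strands, were found in 82.4% of the region windows, 82.3% of the shared-peak windows and 43.4% of all windows. Windows under regions with H3K4me3 alone had a median of 21 CpG, those with both marks 19, and the 20 with neither mark 5.

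Of the 10 regions with the most reads, 7 lay within 1 kb of a KO/control peak, and 1, at Fat4 and its antisense gene C230034O21Rik, lay within 1 kb of a gene start. The highest, chr8:123584865-123585595, had 38.0 RPM in KO (interval 36.5 to 39.6) and 30.8 with inhibitor (29.0 to 32.6), lay outside genes, overlapped H3K27me3 only, and was 648 bases from a KO/control peak. A second region on the same chromosome, chr8:123587491-123587803, had 16.7 and 14.2 RPM and neither mark. The region chrX:169997574-169998194 inside Mid1, a ubiquitin ligase gene that crosses the pseudoautosomal boundary in C57BL/6, had 26.1 and 24.99 RPM and H3K4me3 only. On chromosome 6, chr6:47680783-47681176 and chr6:47676479-47676811 had 24.5 and 22.2 RPM in KO and 22.3 and 17.7 with inhibitor. Both carried both marks and lay outside genes, with Ezh2 as the nearest protein-coding start, 85442 and 81138 bases away.

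Of the other strong regions, one lay inside Ecel1, a neuronal endopeptidase gene, at chr1:87153880-87154975 with 19.2 and 16.1 RPM and both marks. One lay inside the transcription factor gene Zfhx3, at chr8:108695483-108696763, with 16.5 and 14.1 RPM and both marks. One lay 29271 bases from the homeobox gene Nkx1-1, at chr5:33463247-33464285, with 15.8 and 14.4 RPM and neither mark. Of the 10 regions with the most reads, the Tcstv3 region was the only one to differ by 2-fold, and each of the 10 had the lower RPM with inhibitor as deposited. The interval of the ratio included 1 for the Mid1 region (0.883 to 1.04) and the Nkx1-1 region (0.820 to 1.016), and the log2 ratio of the Mid1 region, -0.061, is smaller in size than the 0.086 that the scaling to reads in peaks adds.

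The 396 regions with both marks at protein-coding starts were led by Fat4, an atypical cadherin, at chr3:38887084-38888555 with 16.0 RPM in KO and 13.0 with inhibitor. Acan followed with the values above. Cilp2, a cartilage matrix gene, had 13.9 and 12.3 RPM at chr8:69888614-69889669, Oaf had 12.7 and 10.6 at chr9:43237575-43239289, and Npas2, a clock transcription factor, had 12.6 and 10.05 at chr1:39192119-39193592. Nol3, an inhibitor of apoptosis, had 11.9 and 10.4 at chr8:105276306-105277224, and Dpysl5, a neuronal growth cone gene, had 11.6 and 10.6 at chr5:30712191-30713903. Ier5 at chr1:155098090-155099833 was the only one of these 8 with the higher value under inhibitor, 12.2 against 11.3 RPM, and the interval of its ratio, 0.958 to 1.22, included 1. The widest region covered the start of Cfap100 over 2040 bases at chr6:90426896-90428936, with 10.7 RPM in KO and 11.1 with inhibitor. The second widest, chr9:80956307-80958122, lay outside genes with H3K4me3 only and had 3.04 and 2.51 RPM.

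Developmental transcription factors were found at the regions. Of 74 listed, 10 (13.5%) had a region within 1 kb of their start, against 885 of 20022 protein-coding genes (4.42%). A shared peak lay there in 23 (31.1%), against 12.6% of protein-coding genes. Of the 10 with a region, 8 had no shared peak there. Cdx2, which specifies the trophectoderm, had 9.22 RPM in KO and 7.77 with inhibitor at chr5:147306667-147307217. Hoxa9, a posterior body gene, had 7.83 and 8.20 at chr6:52229642-52230265. Tbx15, of limb and skeletal development, had 7.56 and 6.37, and Atoh1, which drives cerebellar granule neurons, had 7.03 and 6.32. These 4 had both marks, as did Barhl2, a retinal and spinal neuron gene, which had 6.72 and 4.79 RPM.

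Nkx2-2, of the ventral neural tube, had 6.34 and 6.48 RPM, and Lhx2, of the forebrain and eye, had 5.95 and 5.69. Both had H3K4me3 without H3K27me3. The remaining listed members were Hoxd13, Msx2 and T, the mesoderm factor brachyury. By symbol, a group chosen after the values were seen, 6 of 39 Hox genes (15.4%) had a region, against 4.42% of protein-coding genes. They were Hoxa9, Hoxc4, Hoxd13, Hoxd3, Hoxd4 and Hoxd8. Shared peaks lay at more of them, 11 of the 39 (28.2%), against 12.6% of protein-coding genes.

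In the other lists 0 or 1 gene had a region, and with 14 to 27 genes a list these counts are near the 4.42% of all protein-coding genes. Of 24 genes of PRC2 and histone acetylation, Phf19, which encodes a Polycomb-like partner of PRC2, had one, with 4.71 RPM in KO and 4.79 with inhibitor. None of 27 two-cell genes, 25 nucleolus and ribosome biogenesis genes, 19 pluripotency genes, 20 maternal oocyte genes and 14 genes of cumulus and granulosa cells had a region within 1 kb of its start. Shared peaks lay at 2 of the two-cell genes, 4 of the oocyte genes, 3 of the cumulus and granulosa genes, and 0 of the nucleolus and pluripotency genes. They also lay at 2 of the genes of PRC2 and histone acetylation, Phf19 among them.

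Most regions had no other region nearby. Joined over gaps of up to 10 kb, 3310 had no other region beside them, and there were 198 pairs, 24 groups of 3, 4 groups of 4 and 1 group of 5. Other AcNPM1 peaks were not counted in these groups, and 1147 regions (30.2%) lay within 10 kb of a KO/control peak. The group of 5, chr7:70334859-70347422, held Gm29683 and Gm44946 and had 38.3 RPM in KO and 35.1 with inhibitor over its regions. A group of 4 lay at the semaphorin gene Sema6b, with 22.2 RPM in KO and 24.2 with inhibitor, and one at Lyl1 and Nfix, both transcription factor genes, with 28.8 and 24.4. A group of 3 lay at Gdf7, a BMP family ligand, with 17.0 and 15.7 RPM.

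RNA of the nearby genes was described at 22h, where the counts held 3 control and 3 LoNA KO libraries of 15920815 to 18286944 reads. The labels list 4 samples a group at 22h and at 24h, so the columns are fewer than the samples, and which samples they hold is not given. RNA from embryos with inhibitor was not analysed here. The 683 protein-coding genes with a region and no shared peak at their start had a median of 2.65 counts per 1000000 (CPM) in control, with library medians of 2.13 to 3.14, and 2.83 in KO. Genes with a shared peak had 1.11 CPM in control and 1.26 in KO, and genes with no AcNPM1 peak of the inhibitor table had 4.83 and 5.08. Genes with a region at their start, and H3K4me3 but no H3K27me3 at that start, had 3.97 CPM in control. Those with a region and both marks at their start had 2.07. Without AcNPM1 as a condition, all genes with H3K4me3 alone at their start had 11.2 CPM, and all with both marks 1.18.

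Named genes ranged widely. Npas2 had 51.8 ± 13.2 CPM (SD, n = 3) in control and 59.5 ± 15.6 in KO, and Dpysl5 had 8.39 ± 1.29 and 6.26 ± 3.32. Phf19 had 8.41 ± 5.39 and 8.65 ± 2.48. Fat4, Acan, Cilp2, Oaf, Nol3, Cdx2 and Hoxa9 had means below 1 CPM in both groups, and Atoh1 had no count in any control library. In these genes the KO libraries overlapped the control libraries. RNA was not looked up for every gene named here. Among those looked up, Tbx15 was the only one whose groups did not overlap, with 0.0209 ± 0.0363 CPM in control and 2.21 ± 1.80 in KO (n = 3 each). Over all 683 genes with a region and no shared peak, all KO libraries were above all control libraries in 34 (4.98%), against a background of 4.13% of protein-coding genes, and below in 21 (3.07%), against 3.04%. These shares were near the background. In whole embryos, fewer cells with a transcript and less transcript per cell cannot be told apart.

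At 24h, the time of the chromatin, the columns gave 2 libraries a group, and their values were uneven. The 373 genes with a region that were in that table had library medians of 0.124 to 2.53 CPM in control and 0.0591 to 1.03 in KO. Two-cell markers (27 genes) summed to 8290 to 10937 CPM in the 22h control libraries and to 8208 to 10670 in KO, with overlap. Oocyte markers (20 genes) summed to 16139 to 19096 in control and 15700 to 19761 in KO. The 11 cumulus and granulosa markers in that table summed to 52.9 to 102 CPM in control and 56.2 to 314 in KO, with 3 at 0 in every control library. At 24h, 25 two-cell markers summed to 11102 and 13654 CPM in the control libraries and to 14542 and 15195 in KO. This order rests on 2 libraries a group, and no share over all genes was computed beside it. Of these markers, 84% had a mean of at least 1 CPM in control and 64% in KO. The 18 oocyte markers summed to 13802 and 20596 in control and 17413 and 22347 in KO. The 4 cumulus and granulosa markers in that table summed to 0.0621 and 4.36 CPM in control and 1.83 and 82.6 in KO. The part of such cells in the peaks was not tested.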

How the data were processed

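AcNPM1, H3K27me3 and H3K4me3 peaks came from tables the authors deposited, on mm10, with each peak's position, read counts, RPM, a log2 ratio and the total reads of each column. The deposited RPM equalled the reads scaled to the total within 5e-05. For chromatin, MACS2 2.1.1, Bowtie2 2.1.0 and bcl2fastq 2.2 are listed in the submitters' processing notes, and for RNA HTSeq 0.6.0, HISAT2 2.1.0 and Bowtie2 2.2.3, without roles. The peak threshold, the pooling of replicates and whether starts count from 0 are not given in the sources used here. Coordinates are printed as deposited. Each AcNPM1 condition has 1 column, which may be a pool or 1 replicate.

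Overlap needed 1 shared base. Gene starts came from the positions in the deposited RNA count tables, of 37525 genes (20022 protein-coding). Exons, introns and UTRs were not annotated here. CPM was computed from the deposited counts; at 24h, columns that correlated above 0.99 were summed as 1 library. Intervals of shares are Wilson, those of reads exact Poisson, at 95%. Shares and medians are described without tests, since peaks are not replicates. Python 3.11.15, pandas 2.3.3, numpy 2.4.6, scipy 1.17.1 and matplotlib 3.10.9 were used, and only the overlap code was tested on simulated intervals.

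Named regions were the 10 with the most reads, the 6 highest and 6 lowest ratios among those with at least 20 summed reads, 8 with both marks at protein-coding starts, 8 at listed genes, and the 3 widest. Of the sequences, 3 of the named regions with a RefSeq window were printed, and the stretches left out were shorter and held fewer CpG. The regions, gene lists and tests were chosen with earlier results of these data known. Where the labels do not say that samples came from separate embryo collections, SDs measure only the spread between libraries.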

Additional observations from a re-analysis of the deposited data

How the results depend on the processing

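No paired analysis was possible because the peak tables hold 1 column a condition and the RNA columns carry no replicate number of the labels. The 20-read minimum removed no region, since the lowest had 72 summed reads. Requiring 200 summed reads (chosen after seeing the data, like the minimum width of 400 bases, the 1 RPM minimum in both columns, the centre rule and leaving out RNA libraries) left 2116 regions, with H3K27me3 on 53.6%, H3K4me3 on 65.9%, 36.3% near gene starts, a median log2 ratio of -0.074, and 3 regions 2-fold higher and 9 lower. With at least 400 bases, H3K27me3 lay on 50.8% and H3K4me3 on 67.1%, and 9 regions were 2-fold lower. With at least 1 RPM in both columns, H3K27me3 lay on 46.7%, and 29.3% were near starts. At that minimum 4 regions (0.116%) were higher and 13 (0.378%) lower, against 0.0532% and 0.310% of all such peaks. When the mark had to cover 50% of a region the shares were 42.6% and 60.4%, and with the centre in H3K4me3, 60.5%. The share near starts was 25.3% without regions within 1 kb of a KO/control peak, 35.6% within 2.5 kb of a start, and 23.0% for protein-coding starts only. Scaled to the reads in all peaks, which shifted every peak alike, the median log2 ratio turned to 0.057, with 27 regions higher and 12 lower. Beside the 2-fold counts on that scale, at 200 reads and at 400 bases, no share of all peaks was computed. At 1.5-fold, 178 were higher and 187 lower. Leaving out each 22h control library moved the median of 2.65 CPM to between 2.44 and 2.72. The causes of these shifts were not tested, beyond the fewer regions each minimum leaves. The median region had 139 reads in KO and 85 with inhibitor, so its counting error is known and the spread between embryo samples is not.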
